A study of Homo sapiens with 2 samples.

Results

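The genes described here are 10 core genes of the G1 phase of the cell cycle, namely the D-type cyclins CCND1, CCND2 and CCND3, the E-type cyclins CCNE1 and CCNE2, the kinases CDK4 and CDK6, the kinase inhibitors CDKN1B and CDKN2A, and the transcription factor E2F1. They were chosen by name and make up 10 of the 18417 genes that the array measured with a sequence of 1 gene symbol. The mRNA was that of HT1080, a human fibrosarcoma cell line with an activated NRAS allele, after 24 h in wells coated with rLCC111 or with bovine serum albumin (BSA). rLCC111 is a recombinant protein that holds the coiled-coil domain of laminin-111 and was made in a human embryonic kidney line from truncated mouse α1, β1 and γ1 chains, and the BSA wells served as the control coating. The line was grown in medium with fetal calf serum, and nothing besides the coating sets the groups apart in the labels. Each coating is represented by 1 whole-transcript array of total RNA, so no difference given here has a replicate check, no p-value can be given, and the coating cannot be told apart from the well, the RNA preparation or the array.

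In G1, D-type cyclins bind CDK4 and CDK6, and E-type cyclins bind CDK2, and these kinases phosphorylate the retinoblastoma protein RB1 and its relatives. Phosphorylated RB1 releases E2F factors, which drive the genes of DNA replication and, among others, CCNE1, CCNE2 and E2F1 itself. The inhibitor p27, the product of CDKN1B, acts on cyclin-kinase complexes, whereas p16, a product of CDKN2A, binds CDK4 and CDK6. In many cell types adhesion to matrix and growth factors together set the level of cyclin D1, and the amounts of cyclin E, p27 and E2F1 are controlled to a large part through protein stability, which an array of mRNA does not measure.

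Levels are the log2 values that the authors obtained with the RMA algorithm, which corrects the background, normalizes and summarises the probes of a sequence. A difference is the value of the rLCC111 array less that of the BSA array, so that 1 equals 2-fold. The smaller step of 0.32, which is 25% higher or 20% lower, is used to count genes short of that. The median level over 33297 sequences was 7.12 on rLCC111 and 7.04 on BSA. The 399 olfactory, taste and other sensory receptor genes on the array were taken as genes with little mRNA in this line. Mean levels up to 6.61, the 95th percentile among these genes, were treated as silent, and the SD of the differences of the 399 genes was 0.18. Of the 399, 80 had a difference of exactly 0, and their levels reached 11.48. Among 12738 genes with the brighter array above the limit the SD was 0.22. The SD of 0.18 is thus not a measure of the spread at the levels of the G1 genes. Of 8 mesenchymal markers, 7 lay above the limit on both arrays (S100A4 did not), whereas of 13 measured markers of epithelial, endothelial and blood cells 2 did, KRT14 at up to 7.54 and CD14 at up to 6.69. The label of a mesenchymal tumour line therefore fits the markers. With respect to direction, the arrays were not balanced at high levels: among 3658 genes with a mean level over 10, 62.1% had a difference below 0 and the median was -0.05, against a median of 0.00 over all genes.

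All 10 G1 genes had levels above the limit of silent genes on both arrays, and none of them differed 2-fold, a size that 0.326% of all genes reached in either direction. That none would differ 2-fold was known from an earlier report on these data, which is why the step of 0.32 was used. CCNE1 was higher on rLCC111 by at least 0.32, as were 4.56% of all genes, and CCND2 was lower by at least 0.32, as were 3.68%. The differences of the other 8 genes were smaller in size. Differences were above 0 for 6 of the 10 genes and below 0 for 4, beside 46.2% and 46.6% of all genes. After median centring the split was 3 above 0 and 7 below, beside 26.4% and 73.6% of all genes, whereas lowess and quantile scaling left it at 6 and 4. The median difference of the 10 genes was 0.04, and it was -0.04 after the arrays were centred on their medians.

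**Figure D1:**
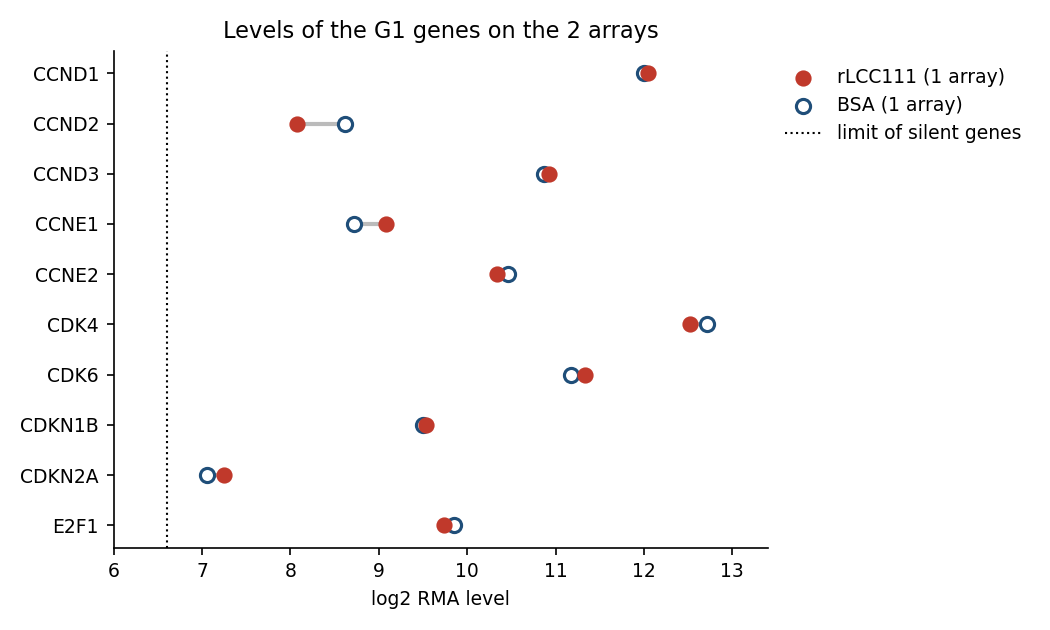
Log2 RMA level (horizontal axis) of each of the 10 G1 genes on the rLCC111 array (filled points) and the BSA array (open points), 1 array per coating and thus no error bars, with the limit of silent genes at 6.61 as a dotted line. Only CCND2, at 8.08 on rLCC111 and 8.62 on BSA, and CCNE1, at 9.08 on rLCC111 and 8.72 on BSA, show a gap wider than 0.32.

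Among the D-type cyclins, which couple mitogen and adhesion signals to CDK4 and CDK6, CCND2 stood apart from the others. CCND2 had a level of 8.08 on rLCC111 and 8.62 on BSA, a difference of -0.54 and a fold of 0.690. Of all genes, 136 (0.738%) had a more negative difference. The size of this difference was 2.93 times the SD among sensory receptor genes. In the RefSeq annotation CCND2 overlaps the antisense gene CCND2-AS1.

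CCND1, the D-type cyclin most often tied to adhesion and to the RAS pathway, was at 12.048 on rLCC111 and 11.996 on BSA. Its difference of 0.05 turned to -0.03 after median centring and reached 0.09 after removal of the trend with level. CCND3, which many cell types express beside CCND1, was at 10.93 on rLCC111 and 10.87 on BSA. Its difference of 0.06 likewise turned to -0.02 after median centring. Among all genes, 32.1% had a more positive difference than CCND1 and 31.2% a more positive one than CCND3, so neither stood out on these arrays.

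The E-type cyclins, partners of CDK2 at the entry into S phase, had differences of opposite sign. CCNE1 was at 9.08 on rLCC111 and 8.72 on BSA, a difference of 0.37 and a fold of 1.29. A more positive difference was found for 641 genes, or 3.48% of all. The size of the CCNE1 difference was 2.00 times the SD among sensory receptor genes, and it was short of the 25% step after median centring, at 0.29, and by a small margin after quantile normalization, at 0.32. CCNE2 was at 10.34 on rLCC111 and 10.47 on BSA, a difference of -0.12, and 18.9% of all genes lay further below. CCNE2 overlaps INTS8 and NDUFAF6 in the annotation, whereas no gene overlaps CCNE1.

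The G1 kinases differed little and in opposite directions. CDK4 was at 12.53 on rLCC111 and 12.71 on BSA, a difference of -0.19 and a fold of 0.877. Of all genes, 11.1% had a more negative difference. CDK4 overlaps TSPAN31 and MIR6759 in the RefSeq annotation, and which of the overlapping genes gave the signal was not tested. CDK6, which forms the same kind of complex with D-type cyclins, was at 11.33 on rLCC111 and 11.18 on BSA, a difference of 0.15, with 14.9% of all genes further above. It overlaps CDK6-AS1, and CCND3 among the cyclins overlaps a small nuclear RNA pseudogene, while no gene overlaps CCND1, CDKN1B or E2F1.

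Neither inhibitor reached a difference of 0.32. CDKN1B, the gene of p27, had nearly the same level on both arrays, 9.53 on rLCC111 and 9.50 on BSA, and its difference of 0.03 turned to -0.05 after median centring. CDKN2A, which encodes p16 and, in another reading frame, the MDM2 inhibitor p14ARF, was at 7.25 on rLCC111 and 7.06 on BSA, a difference of 0.19 with 11% of all genes further above. The platform's annotation of its sequence lists transcripts of both products, and the gene overlaps CDKN2A-AS1 and CDKN2B-AS1 in RefSeq. HT1080 has been described as carrying a deletion that takes CDKN2A and the neighbouring MTAP. On the arrays CDKN2A had a level above the limit, with 5 of the 399 sensory receptor genes at a higher mean level. MTAP, a widely expressed enzyme of methionine salvage, was at 5.44 on rLCC111 and 5.52 on BSA, below the limit on both. Of 10 measured genes beside CDKN2A on the same chromosome arm, 5 lay above the limit, CDKN2B, DMRTA1, KLHL9, FOCAD and MLLT3. Whether the CDKN2A level is that of a transcript of the gene was not tested.

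E2F1, the activator that RB1 holds in check, was at 9.74 on rLCC111 and 9.85 on BSA. Its difference of -0.11 kept its sign under each scaling tried, between -0.19 and -0.09, and 20.8% of all genes had a more negative difference.

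**Figure D2:**
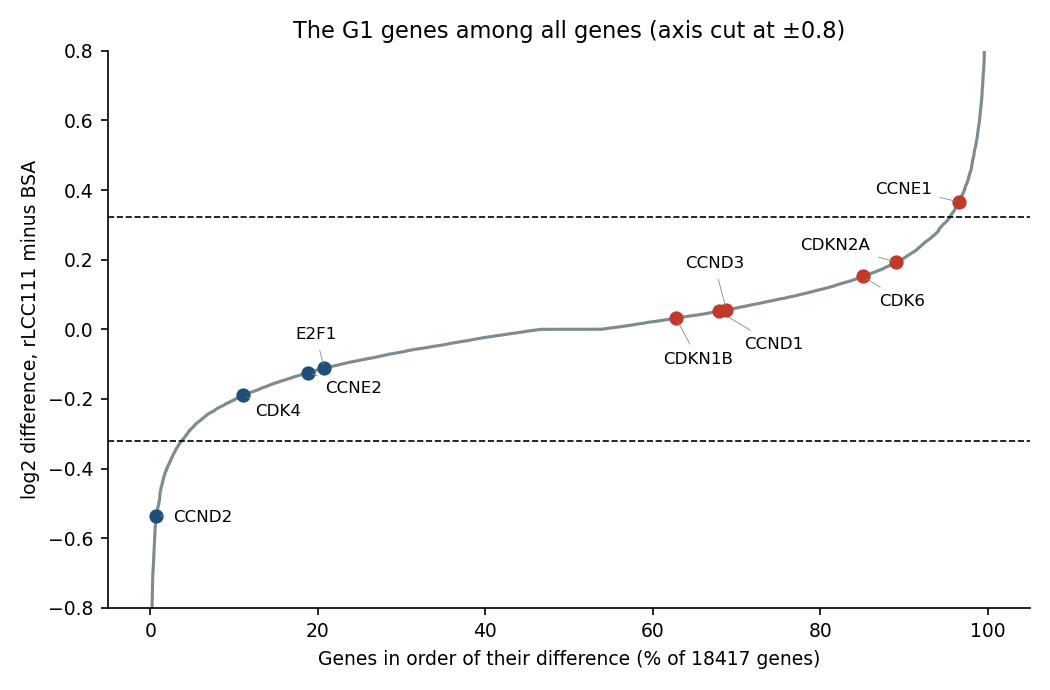
Log2 difference, rLCC111 minus BSA (vertical axis, cut at ±0.8), of all 18417 genes in order of that difference (horizontal axis, percent of genes), with the 10 G1 genes as points and differences of ±0.32 as dashed lines. CCND2 has 0.738% of genes below it and CCNE1 has 3.48% above it, while CCND1, CCND3 and CDKN1B lie near the flat middle of the curve and change sign after median centring.

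The arrays differ slightly in scale, and the choice of scaling moved each G1 gene by less than the SD among sensory receptor genes. Under median centring this was fixed in advance, since it moves every gene by the same 0.08. CCND2 lay between -0.62 and -0.56 under median centring, lowess and quantile scaling, and CCNE1 between 0.29 and 0.36. CDK4 stayed below 0, between -0.27 and -0.16, and CDK6 above 0, between 0.07 and 0.20. CCNE2 lay between -0.20 and -0.09, and CDKN2A between 0.11 and 0.16. Thus 7 of the 10 genes kept their sign under the scalings tried, and CCND1, CCND3 and CDKN1B did not, turning after median centring only.

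**Figure D3:**
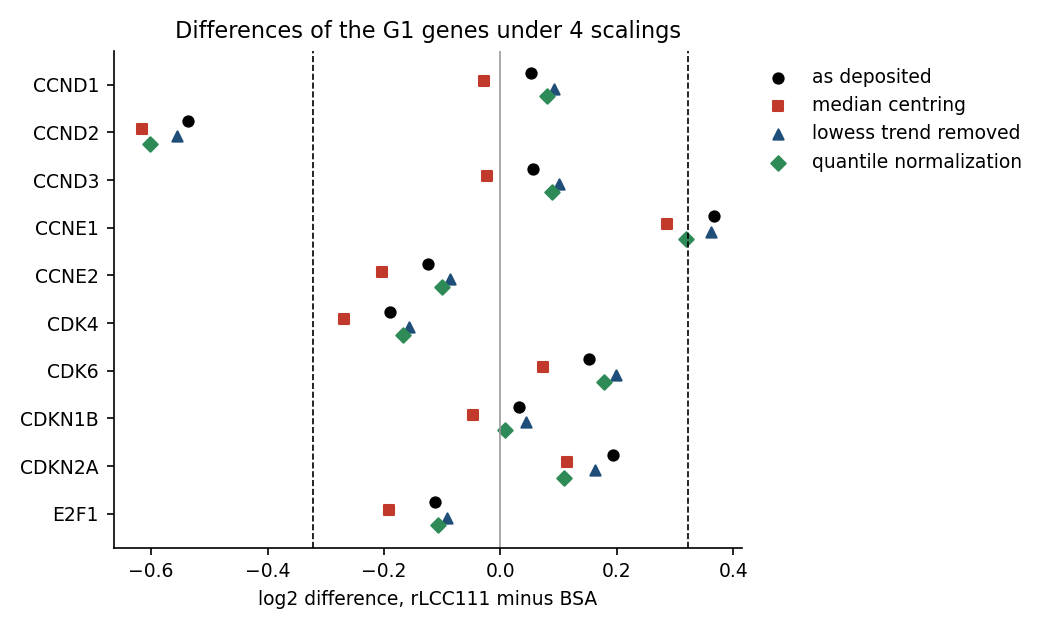
Log2 difference, rLCC111 minus BSA (horizontal axis), of each of the 10 G1 genes with 4 symbols for the deposited values, median centring, lowess and quantile scaling, and dashed lines at ±0.32. CCND2 lies beyond the lower dashed line under all 4, CCNE1 crosses the upper one, and CCND1, CCND3 and CDKN1B have points on both sides of 0.

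The promoters of 7 of the 10 genes matched the RefSeq promoter table (GRCh38.p14, 250 bases before to 50 after each start), some with more than 1 window, and CCND1, CCND2 and CCNE2 are named only. Each window was searched on both strands for 4 forms of the E2F site, TTTCCCGC, TTTGGCGC, TTTCGCGC and TTTGCCGC, and for the E-box CACGTG, which MYC and its partners bind, with overlapping matches counted. E2F1, known to be driven by E2F factors, was the one gene of the 7 with an E2F match, and CDK4, a known MYC target, held 3 E-boxes. The windows of E2F1 and CDK4 are shown, with matches in capitals.
E2F1 chr20:33686336-33686635 (-): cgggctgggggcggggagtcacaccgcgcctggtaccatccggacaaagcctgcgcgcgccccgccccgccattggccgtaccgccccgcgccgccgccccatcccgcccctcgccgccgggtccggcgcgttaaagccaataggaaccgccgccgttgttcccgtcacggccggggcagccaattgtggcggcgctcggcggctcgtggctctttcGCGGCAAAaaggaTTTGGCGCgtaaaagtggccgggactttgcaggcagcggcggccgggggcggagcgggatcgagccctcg
CDK4 chr12:57752261-57752560 (-): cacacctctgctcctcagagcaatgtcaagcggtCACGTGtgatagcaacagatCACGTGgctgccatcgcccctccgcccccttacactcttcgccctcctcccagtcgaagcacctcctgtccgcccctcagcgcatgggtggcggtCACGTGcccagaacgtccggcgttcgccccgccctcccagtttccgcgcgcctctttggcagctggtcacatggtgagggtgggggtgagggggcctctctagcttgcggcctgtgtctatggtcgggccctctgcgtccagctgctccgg
In the E2F1 window the matches began 33 and 20 bases before the start, and in the CDK4 window the E-boxes began 216, 196 and 101 bases before it. CDK6, whose window is not shown, held 1 E-box, 30 bases after the start. Its difference was 0.15, opposite in sign to that of CDK4, -0.19. Whether MYC or E2F factors acted on these genes here was not tested. By gene, 1 of the 7 held an E2F match and 2 an E-box, beside 5.51% and 10.9% of 14239 measured genes with a window. By window, an E2F match was found in 3.31% of all 35116 windows and an E-box in 7.26%. The CCNE1 window held neither, which says only that these letters are not in it.

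Among the other cyclins and kinases of the cycle, listed with genes that act on them such as the CDC25 phosphatases, most differences lay below 0. Of 12 measured genes, 11 had a difference below 0, with a median of -0.18. In this list 1 gene, the phosphatase CDC25C, was lower by at least 0.32. Of all genes, 46.6% lay below 0 and 3.68% were lower by at least 0.32, and 62.1% of those with a mean level over 10 lay below 0. Not all of the 12 had a mean level over 10. CDK2, the kinase of the E-type cyclins, was at 10.78 on rLCC111 and 10.91 on BSA, a difference of -0.13. CDC25A, the phosphatase that activates CDK2, was at 9.24 on rLCC111 and 9.48 on BSA, and CDC25C, which acts at entry into mitosis, at 7.94 on rLCC111 and 8.30 on BSA, a difference of -0.36. WEE1, the inhibitory kinase of CDK1, was the gene with a difference above 0, at 0.11.

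The other CDK inhibitors were also mostly below 0, in 4 of 5 measured genes, and 1 was lower by at least 0.32, beside the same shares of all genes. CDKN3, a phosphatase of CDK2 whose transcript peaks late in the cycle, was at 10.31 on rLCC111 and 10.79 on BSA, a difference of -0.48. CDKN2B, the gene of p15 beside CDKN2A, was at 7.72 on rLCC111 and 8.04 on BSA, a difference of -0.32 that missed the step of 20% lower by a small margin. CDKN1A, the gene of p21 and a target of p53, was at 9.65 on rLCC111 and 9.75 on BSA. CDKN2D, the gene of p19, was at 8.34 on rLCC111 and 8.16 on BSA and was the only inhibitor of the 5 with a difference above 0.

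The RB family and its E2F and DP partners were spread around 0. Of 13 genes, 7 had a difference above 0 and 6 below, beside 46.2% and 46.6% of all genes. None reached 0.32 in size, and the median was 0.01. After median centring 11 of the 13 were below 0 and after quantile scaling 10, beside 73.6% and 65.8% of all genes. RB1 was at 11.91 on rLCC111 and 11.99 on BSA. Its relatives RBL1 (p107) and RBL2 (p130) both had a difference of 0.02, and TFDP1, the DNA-binding partner of E2F factors, one of -0.07. These 4 differences were smaller than the SD among sensory receptor genes. Genes that control the degradation of cyclins and p27, among them the deubiquitinase USP28, were near 0 as well. Of 18 genes, 7 were above 0 and 11 below, beside 46.2% and 46.6% of all genes. None was at 0.32 or more in size, and the median was -0.02. With scaling the number below 0 ran between 8 after lowess and 15 after median centring, beside 55.8% and 73.6% of all genes. SKP2, which targets p27, had a difference of -0.14, its cofactor CKS1B one of -0.30, and FBXW7, which targets cyclin E, one of -0.09. RNF123 and UBAC1, subunits of another ligase for p27, had differences of 0.18 and 0.09, and AMBRA1 and FBXO31, which target D-type cyclins, of 0.03 and 0.04.

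Transcripts that these regulators control in S phase and mitosis mostly had small differences below 0. Of 28 measured E2F targets of the G1/S transition, 26 had a difference below 0 and 2 above, with a median of -0.15, and 27 lay within 0.32 of 0. Since such genes are abundant in a cycling line, they are set beside genes of like level. The 23 targets with a mean level over 10 held 21 below 0 with a median of -0.16, against 62.1% of all genes of that level below 0 with a median of -0.05. In this set 1 target, CDC6, was lower by at least 0.32, beside 4.26% of genes of that level, and none was higher by as much, beside 2.93%.

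CDC6, which loads the replicative helicase, was at 10.46 on rLCC111 and 10.89 on BSA, a difference of -0.43. MCM2, a subunit of that helicase, had a difference of -0.31, the thymidine kinase TK1 one of -0.26 and the ribonucleotide reductase subunit RRM2 one of -0.24. SLBP and UHRF1 were the targets above 0, both at 0.06. After median centring, lowess and quantile scaling the median of the 28 targets was -0.23, -0.11 and -0.13, with 28, 25 and 26 below 0, and that of all genes with a mean level over 10 was -0.12, -0.01 and -0.02, with 80.7%, 51.7% and 56% below 0. Here the sets are not fully matched in level, since 23 of the 28 targets had a mean level over 10.

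The mitosis and proliferation markers had the lowest median of the lists, -0.24, with 15 of 16 genes below 0. CENPE, a kinetochore motor, had a difference of -0.45, the kinase AURKA one of -0.44 and the checkpoint kinase TTK one of -0.35, and these 3 were lower by at least 0.32, while the other 13 lay within 0.32 of 0. The 15 markers with a mean level over 10 held 14 below 0 and 2 lower by at least 0.32, with a median of -0.23, beside 62.1% and 4.26% of all genes of that level. MKI67, the gene of the proliferation antigen Ki-67, was at 11.65 on rLCC111 and 11.66 on BSA. A list of 9 genes held 5 subunits of the MuvB complex, MYBL1 (A-MYB), MYBL2 (B-MYB) and FOXM1, of which B-MYB and FOXM1 act with it at mitotic genes, and DYRK1A, a kinase that promotes the repressive form of the complex. All 9 were below 0, DYRK1A at -0.01, beside 46.6% of all genes and 62.1% of those with a mean level over 10, a level that not all of the 9 had. Their median was -0.16 and none reached 0.32 in size. After lowess and after quantile scaling 8 of the 9 were below 0, beside 55.8% and 65.8% of all genes. In RNA of a whole culture, fewer cells in S phase or mitosis and less of these transcripts per cell cannot be told apart.

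**Figure D4:**
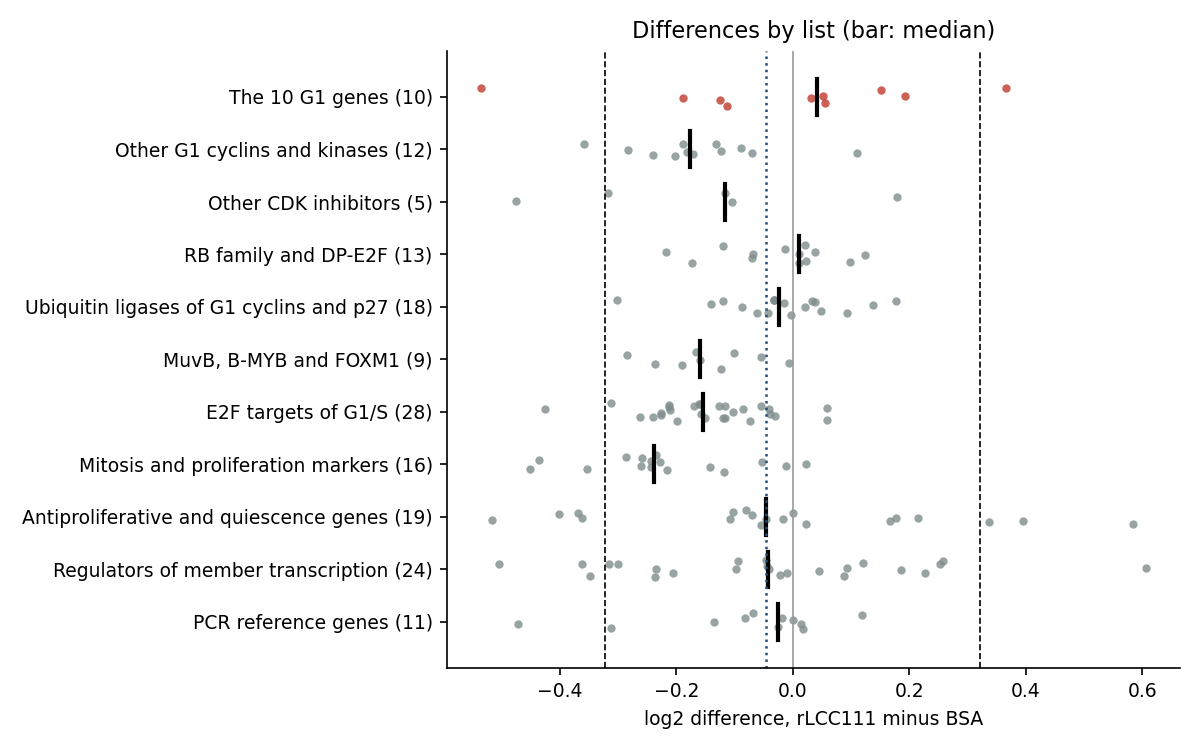
Log2 difference, rLCC111 minus BSA (horizontal axis), of each measured gene in the 10 G1 genes (red) and in 10 related lists (grey, number of genes in brackets), with the median of each list as a bar, ±0.32 as dashed lines and the median of genes with a mean level over 10 as a dotted line. The G1 genes have a median of 0.04, the E2F targets -0.15 and the mitosis markers -0.24, and these values were not tested against each other.

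An E2F match, as defined above, was found in the windows of 16 of 26 E2F targets (61.5%), against 784 of 14239 measured genes (5.51%), and in none of 12 windows of mitosis markers. The targets were listed as genes that E2F factors drive, so a high share among them follows from the choice of the list. Stretches of 30 bases from these promoter windows are shown with the matches in capitals for CDC6 and the helicase subunits MCM2 and MCM6, and for the chromatin enzymes EZH2 and DNMT1, so that the matched letters can be compared.
CDC6 chr17:40287875-40287904 (+): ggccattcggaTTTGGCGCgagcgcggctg
MCM2 chr3:127598402-127598431 (+): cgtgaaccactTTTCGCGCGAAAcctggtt
MCM6 chr2:135876577-135876606 (-): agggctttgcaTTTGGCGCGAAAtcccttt
EZH2 chr7:148884272-148884301 (-): gggctgccgcgTTTGGCGCtcggtccggtc
DNMT1 chr19:10194937-10194966 (-): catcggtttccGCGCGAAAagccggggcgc
MCM2 and MCM6 held a match that overlaps one on the other strand. The difference was -0.23 for MCM6 and for EZH2 and -0.16 for DNMT1. The 16 targets with a match had a median difference of -0.18, with 15 below 0, and the 10 without one a median of -0.10, with 9 below 0. Among all measured genes with a mean level over 10, the 229 with a match had a median of -0.08 and 75.1% below 0, and the 2861 without one a median of -0.04 and 61.1% below 0. The 229 include listed targets with a match, such as CDC6, and are not a separate set. These are descriptions of 2 arrays. Whether a match goes with the difference was not tested, and whether E2F factors bound these sites was not measured.

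Factors that act upstream of the G1 genes were mixed. Of 24 measured genes, 9 had a difference above 0 and 15 below, beside 46.2% and 46.6% of all genes, with a median of -0.04. By at least 0.32, 1 was higher and 3 were lower, beside 4.56% and 3.68% of all genes. MYC, which drives CCND2 and CDK4 in several cell types, was at 10.33 on rLCC111 and 10.69 on BSA, a difference of -0.36. Its antagonists, which compete for the same partner MAX, had differences of both signs, with MXI1 at 0.26 and MNT at -0.04. MXD4 was at 8.60 on rLCC111 and 7.99 on BSA, a difference of 0.61, whereas MXD1 was at 9.32 on rLCC111 and 9.82 on BSA, a difference of -0.50. FOSL1, an AP-1 subunit downstream of RAS, was at 11.44 on rLCC111 and 11.79 on BSA, a difference of -0.35. Whether any of these factors acted on the G1 genes here was not tested.

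Genes that restrain proliferation or accompany quiescence showed no common direction. Of 19 measured genes, 7 were above 0 and 12 below, beside 46.2% and 46.6% of all genes, with a median of -0.05. By at least 0.32, 3 were higher and 4 lower, beside 4.56% and 3.68% of all genes. SESN3, a FOXO target, had a difference of 0.58, although its level of 6.27 on BSA was below the limit and that on rLCC111 was 6.85. YPEL5 and YPEL3, of a family whose proteins localise at the mitotic apparatus, had differences of 0.40 and 0.34. TXNIP, a glucose-responsive inhibitor of growth, was at 8.004 on rLCC111 and 8.52 on BSA, a difference of -0.52, and BTG3 and GADD45A, an antiproliferative factor and a stress-induced inhibitor of CDK1, had differences of -0.37 and -0.36. GAS2L3, which binds the cytoskeleton in dividing cells, had a difference of -0.40 with levels below the limit on both arrays.

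Genes commonly used as references in PCR give the size of difference that such a gene showed on these arrays. Of 11 measured, 3 were above 0, 7 below and 1 at 0, with a median of -0.02. After median centring 10 were below 0, beside 73.6% of all genes. TBP, the TATA-binding protein, was at 10.91 on rLCC111 and 11.39 on BSA, a difference of -0.47, the largest in size of the 11. Its difference was larger in size than that of every G1 gene other than CCND2.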

How the data were processed

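Total RNA of HT1080 cells kept for 24 h on rLCC111 or BSA was hybridised to 1 whole-transcript Affymetrix array per coating. The authors made log2 levels from the scans with RMA in Affymetrix Expression Console, and these deposited log2 values were taken as they are. The version and settings of the software are not given in the sources used here. Precision is limited by how few arrays there are.

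Gene symbols came from the platform's annotation and were brought up to date by gene identifier with RefSeq GRCh38.p14, for 19429 of the 19460 sequences that carry 1 symbol. The 1754 sequences with several symbols and the 12083 without one were not used. Where a gene had several sequences, the one with the highest mean over both arrays stood for it, and each of the 10 G1 genes had 1. With 1 array per coating no test was run, and counts use differences of 1 and 0.32 on the log2 scale. The 10 genes and the related lists were chosen with earlier results of these data known. Genes named from a list are those past 0.32 with the brighter array above the limit of silent genes, up to 6 a list, and 13 chosen genes that bind or modify a member (CDK2, CDC25A, 4 inhibitors, RB1, RBL1, RBL2, TFDP1, SKP2, CKS1B and FBXW7). Outside this rule RNF123, UBAC1, AMBRA1, FBXO31, USP28, DYRK1A, WEE1, MCM2, TK1, RRM2, SLBP, UHRF1, MKI67, EZH2, DNMT1, MCM6, MXI1, MNT, GAS2L3 and the neighbours of CDKN2A were named after their values were seen. Of the genes in the rule, CDKN2C had no sequence with 1 symbol.

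The alternatives tried were centring on the array medians, subtracting a lowess curve (span 0.2, 3 iterations) of difference on level, quantile normalization, averaging a gene's sequences, and keeping genes whose brighter array, or both, exceeded the limit. The counting was tested on simulated data. The work was done in Python 3.11.15 (numpy 2.4.6, pandas 2.3.3, statsmodels 0.14.6, matplotlib 3.10.9).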

Additional observations from a re-analysis of the deposited data

How the results depend on the processing

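No paired analysis was possible because each coating has 1 array. The number of G1 genes higher by at least 0.32 on rLCC111, which was 1 as deposited, was 0 after median centring and 0 after quantile normalization, since CCNE1 then lay at 0.29 and just under the step of 0.32. The other 22 values of the medians and counts over the G1 genes under the alternatives stayed within the SD of 0.18 among sensory receptor genes or within 1.5 times the count. Of 172 values of single genes and related lists, 170 did so. The exceptions were the genes of the RB family and its partners below 0, which numbered 6 as deposited, 11 after median centring and 10 after quantile normalization. Of all genes, 46.6%, 73.6% and 65.8% were below 0 in these settings. Median centring moved every gene by the same 0.08, less than 0.18, so under it no difference or median could leave that bound. A change of sign, as for CCND1, CCND3 and CDKN1B, also counted as within the bound. The numbers of values within it are therefore no measure of how stable the differences are. For the G1 genes, averaging sequences and keeping genes above the limit could not change a value. Each had 1 sequence and lay above the limit on both arrays, so these settings are no check on them. The differences of CCND1, CCND3 and CDKN1B are smaller than the shift of 0.08 between the array medians over 33297 sequences, so their direction depends on the scaling. They fell below 0 after median centring and stayed above 0 after lowess and quantile scaling. The median difference of the 18417 genes was 0.00 as deposited and -0.08 after median centring. No value has a replicate check, and the difference between arrays of 1 coating was not measured. For CDKN2A, the signal over the limit of silent genes is small, which limits what its difference can show.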
